A study of Mus musculus with 8 samples.

Results

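Sterol regulatory element-binding proteins (SREBPs) are transcription factors made as membrane proteins of the endoplasmic reticulum (ER), and 8 genes that make, hold, cut or counter them are described here in mouse liver. They are Srebf1 and Srebf2 (the SREBPs), Scap (their escort), Insig1 and Insig2 (the ER anchors), Mbtps1 and Mbtps2 (site-1 and site-2 protease) and Mylip (a ubiquitin ligase for lipoprotein receptors). They were taken by symbol from a list made with earlier results of these data known, and all 8 occur in every RNA-seq and Ribo-seq library, among 24535 symbols listed once by RNA-seq and 25033 by Ribo-seq.

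The libraries came from livers of male C57BL/6 mice at post natal week 25, with the treatment begun at week 8, and the sources differ on how long the diet was given. The HF group (M in the study) was fed a high-fat diet (fat gave 45% of the energy), and the HB group (B in the study) received the same diet with 2% (w/v) betaine, a methyl donor, in the drinking water, so that the high-fat diet is shared by all samples. Each group had 2 RNA-seq libraries of mRNA and 2 Ribo-seq libraries of ribosome-protected fragments (RPFs), and the comparison asks whether betaine altered these genes in mRNA, in RPF and in translation efficiency (TE, RPF over mRNA). The labels describe pooled RNA preparations and the study 2 animals per group, so replicates are counted as libraries and p-values measure only the spread between libraries, which may be technical.

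In sterol-replete cells INSIG proteins hold the complex of SCAP and SREBP in the ER. When ER sterols fall, SCAP carries SREBP in COPII vesicles to the Golgi, where site-1 protease and then site-2 protease release the part that enters the nucleus. SREBP-1c, from Srebf1, mainly drives fatty acid synthesis in liver, and SREBP-2, from Srebf2, mainly drives cholesterol synthesis and uptake. Insig1 is itself a SREBP target, whereas Mylip is a target of the liver X receptors (LXRs) and sends the LDL receptor and its relatives to degradation.

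On GRCm38, with GENCODE M21 genes, all 8 are protein-coding, and each has a single value per library. Srebf1 lies at chr11:60199089-60222581 on the minus strand and Srebf2 at chr15:82147181-82205379 on the plus strand. Scap lies at chr9:110333288-110384950 on the plus strand. Insig1 lies at chr5:28071363-28078662 on the plus strand and Insig2 at chr1:121304353-121332589 on the minus strand. Mbtps1 lies at chr8:119508156-119558735 and Mbtps2 at chrX:157535371-157598715, both on the minus strand. Mylip lies at chr13:45389742-45412022 on the plus strand. Exons of Srebf1 overlap those of Mir6922 and Rai1, exons of Scap overlap 5830462I19Rik and exons of Mbtps2 overlap Yy2. Mir6922 and Yy2 lie on the same strand as the gene they overlap, and Rai1 and 5830462I19Rik on the opposite strand. The RNA-seq kit did not mark strand, so reads of the opposite-strand overlaps cannot be told apart by strand either.

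Promoter windows from RefSeq (GRCm38.p6, 250 bases before to 50 after an annotated start) were found for all 8 genes and read on both strands for 6 motifs. The motifs were the sterol regulatory element (SRE) core CACCCCAC, a wider form TCACCCCA that shares 7 bases with it and was added after the windows had been seen, the E-box CACGTG, the NF-Y box CCAAT, the GC box GGGCGG and the LXR element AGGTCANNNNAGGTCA. These letters occurred in 2.87%, 1.56%, 7.15%, 37.4%, 35.7% and 0.0152% of all 32851 windows, in that order. In all, 3 windows are printed 5′ to 3′, those of Insig1 and Mylip because their mRNA differed most between the groups, and that of Srebf2 because it alone among the 8 genes held an SRE form. Capitals mark a motif on either strand.
Insig1, chr5:28071162-28071461, plus strand: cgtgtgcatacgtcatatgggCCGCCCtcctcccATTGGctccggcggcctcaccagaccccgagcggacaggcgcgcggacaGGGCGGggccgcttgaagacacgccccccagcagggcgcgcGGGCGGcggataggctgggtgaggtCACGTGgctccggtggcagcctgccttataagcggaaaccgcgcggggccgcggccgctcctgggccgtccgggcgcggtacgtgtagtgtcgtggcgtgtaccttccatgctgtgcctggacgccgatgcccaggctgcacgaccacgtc
Mylip, chr13:45389492-45389791, plus strand: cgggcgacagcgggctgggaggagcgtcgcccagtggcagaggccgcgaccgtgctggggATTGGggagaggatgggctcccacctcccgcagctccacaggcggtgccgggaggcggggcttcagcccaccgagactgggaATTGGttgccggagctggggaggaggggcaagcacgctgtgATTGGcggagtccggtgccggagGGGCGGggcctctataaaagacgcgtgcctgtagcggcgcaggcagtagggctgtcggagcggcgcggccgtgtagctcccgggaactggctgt
Srebf2, chr15:82147019-82147318, plus strand: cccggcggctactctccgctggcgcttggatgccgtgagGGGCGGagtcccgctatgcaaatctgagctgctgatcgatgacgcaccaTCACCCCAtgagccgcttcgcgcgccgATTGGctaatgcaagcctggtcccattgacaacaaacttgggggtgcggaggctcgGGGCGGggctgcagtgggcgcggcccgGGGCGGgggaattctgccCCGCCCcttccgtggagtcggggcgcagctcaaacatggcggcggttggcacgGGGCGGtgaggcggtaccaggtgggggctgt

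The Insig1 window held an E-box at position -101 (the start base is 0), an NF-Y box at -216 and 3 GC boxes. The Mylip window held 3 NF-Y boxes, at -190, -108 and -67, a GC box at -44 and no LXR element of these letters. The Srebf2 window held TCACCCCA at -162, an NF-Y box at -135 and 5 GC boxes. Among the windows not printed, both Scap windows, which overlap, held the same E-box, the first Insig2 window held 3 NF-Y boxes and the Mbtps2 window held none of the motifs. A match is a string of letters and not evidence of binding.

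The depth differed between the groups in both assays. RNA-seq totals, worked out from RPKM values (reads per kilobase, scaled to the total of the library) of weakly expressed genes, were 11661207 and 11824128 reads in HF and 22543471 and 18082686 in HB. Ribo-seq totals were 387980 and 1056546 in HF and 257086 and 141890 in HB. The 8 genes together took 7265 to 31524 reads in an RNA-seq library but 84 to 1392 in a Ribo-seq library, so their RPF values are the less precise ones. The hepatocyte marker list summed to 40336 to 41824 RPKM of mRNA in HF and 46961 to 49716 in HB, against at most 112 RPKM for any list of other liver cells. The 5 stellate cell markers, none at 0 in all libraries, summed to 29.6 to 29.7 RPKM in HF and 38.4 to 67.5 in HB, and the 5 lymphocyte markers to 5.86 to 8.66 in HF and 2.87 to 3.18 in HB. The 5 cholangiocyte markers summed to 26.2 to 31.9 RPKM of mRNA in HF and 15.7 to 26.0 in HB. In RPF the stellate markers went the other way, with 106 to 125 in HF and 80.9 to 87.2 in HB. The part of these cells in the results was not tested, and in bulk liver fewer cells of a type and less RNA per cell cannot be told apart.

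mRNA was compared first. None of the 7 genes tested was called by the thresholds of the study (log2 fold change beyond 1 and unadjusted p under 0.001 in limma), against 8.86% of the 10687 genes tested, 2.30% higher and 6.56% lower in HB. This balance depends on scaling, since 246 genes were called higher and 701 lower as deposited, but 540 higher and 291 lower with the libraries shifted to a common median. At an unadjusted p under 0.05, Insig1 and Mylip passed, 2 of 7 against 40.5% of all genes tested. With a Benjamini-Hochberg adjusted p under 0.05 in place of the unadjusted p, Insig1 alone was called, against 17.7% of all. The HB and HF libraries of the same 2 genes, Insig1 and Mylip, did not overlap, against 68.1% of all genes. None of these counts was above its background.

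Insig1, the anchor that sterols use to retain SCAP, had the highest mRNA difference of the 8 genes. Its mRNA was 44.0 and 43.9 RPKM in the HF libraries and 212 and 68.9 RPKM in the HB libraries. Both HB libraries were above both HF libraries, and HB replicate 1 was 3.07 times HB replicate 2, while the HF libraries were nearly equal. The means were 44.0 ± 0.113 RPKM in HF and 140.3 ± 101 in HB (SD, n = 2 each), from 1360 and 1374 reads in HF and 12642 and 3300 in HB. The difference was 1.44 on the log2(RPKM + 1) scale (SE 0.44, 95% interval 0.46 to 2.42, unadjusted p = 0.00857, limma adjusted p = 0.0372). Without HB replicate 1 it was 0.64 (limma adjusted p = 0.0794), without HB replicate 2 it was 2.24 and called (limma adjusted p = 3.2e-04), and over 13 alternatives the adjusted p ranged from 3.2e-04 to 0.149, with 11 of them under 0.05.

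Insig2, the second anchor, whose transcript is not driven by sterols in the same way, had 43.1 and 18.3 RPKM in HF and 54.4 and 36.4 RPKM in HB. The groups overlapped, since HF replicate 1 was above HB replicate 2. Its difference in mRNA was 0.64 (SE 0.38, 95% interval -0.22 to 1.50, limma adjusted p = 0.237). It hung on the HF libraries, being 0.05 without HF replicate 2 and 1.24 without HF replicate 1 (limma adjusted p = 0.0425). Insig1 mRNA was 1.02 and 2.40 times that of Insig2 in HF and 3.89 and 1.89 times in HB, so the ratio of the anchors overlapped between the groups.

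**Figure D1:**
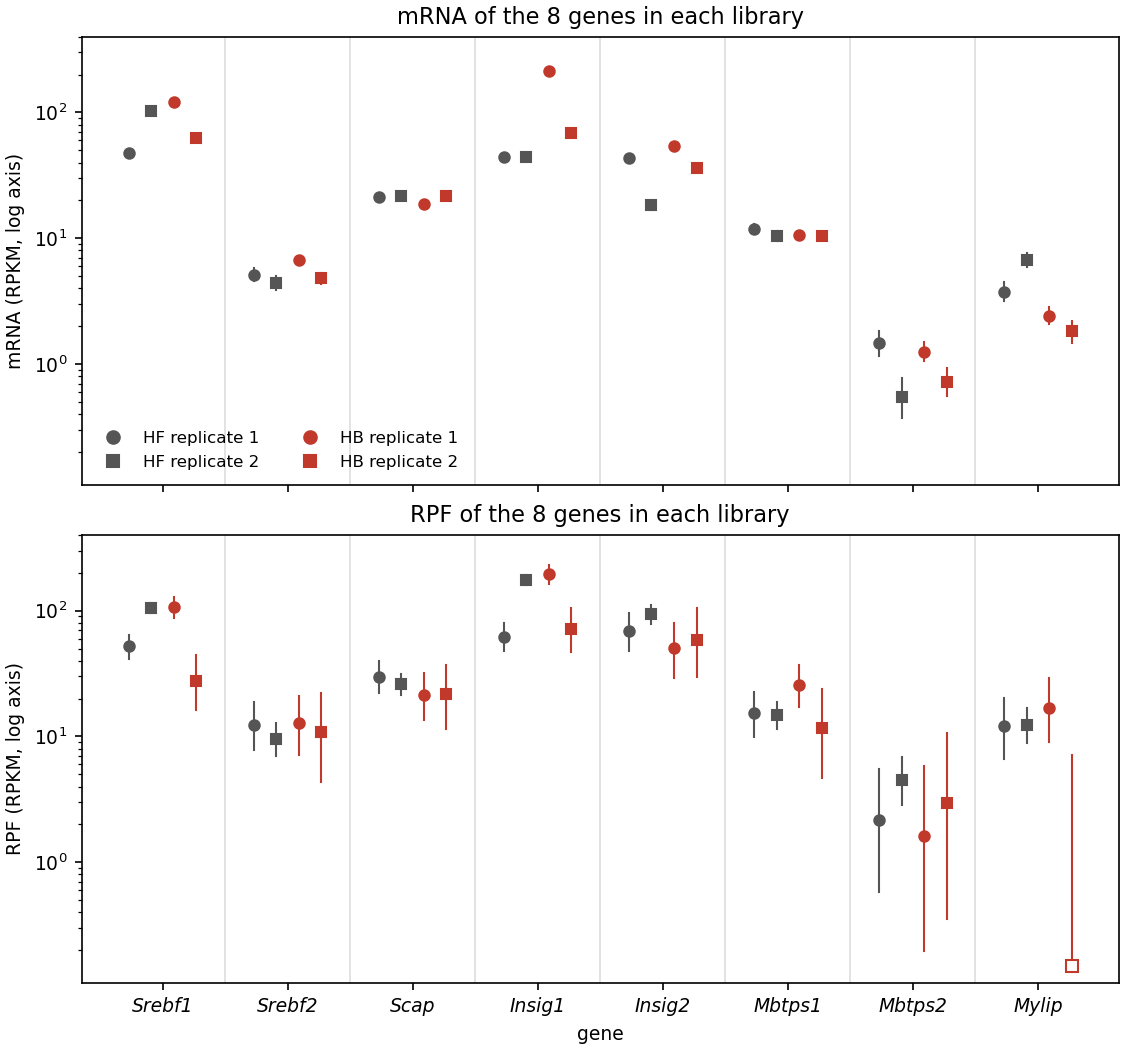
Each point is the RPKM of 1 library (log axis) for mRNA above and RPF below, with HF in grey, HB in red, circles for replicate 1 and squares for replicate 2. Lines are 95% Poisson intervals of the reads, which cover counting error only, and the open square is a library without reads, its line ending at 3 reads. Insig1 mRNA in HB (212 and 68.9 RPKM) lies above HF (44.0 and 43.9), Mylip mRNA in HB (2.42 and 1.82) lies below HF (3.77 and 6.75), and the intervals are wide in RPF.

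The SREBP precursors themselves overlapped between the groups. Srebf1, the source of SREBP-1a and SREBP-1c, had 47.8 and 103 RPKM of mRNA in HF and 121 and 62.7 in HB. Its HF libraries differed by 2.15 times and its HB libraries by 1.93 times, more than the group means of 75.2 ± 38.9 and 91.8 ± 41.1 RPKM (SD, n = 2 each). The difference of 0.31 (SE 0.41, 95% interval -0.60 to 1.22, limma adjusted p = 0.598) became -0.24 without HF replicate 1 and -0.16 without HB replicate 1. Isoforms of Srebf1 share a row, so SREBP-1a and SREBP-1c could not be read apart.

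Srebf2 mRNA was 5.14 and 4.40 RPKM in HF and 6.74 and 4.83 in HB, on 238 to 694 reads. HF replicate 1 was above HB replicate 2, and the difference was 0.22 (SE 0.26, 95% interval -0.36 to 0.81, limma adjusted p = 0.555). Srebf1 exceeded Srebf2 in every library, by 9.29 and 23.3 times in HF and by 17.9 and 13.0 times in HB. Mir33, a microRNA gene within an intron of Srebf2 at chr15:82198122-82198190, was listed at 0 in all 8 libraries.

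The escort and the proteases had close values in both groups. Scap mRNA was 21.3 and 21.7 RPKM in HF and 18.7 and 21.7 in HB, a difference of -0.09 (95% interval -0.64 to 0.46, limma adjusted p = 0.810). Mbtps1 mRNA was 11.9 and 10.4 RPKM in HF and 10.7 and 10.3 in HB, a difference of -0.08 (95% interval -0.62 to 0.47, limma adjusted p = 0.842). With log2 values shifted to a common median, these differences were 0.18 for Scap and 0.20 for Mbtps1, so neither has a direction here. Both intervals leave out a log2 difference of 1 in either direction.

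Mbtps2 mRNA was the lowest of the 8, at 1.47 and 0.546 RPKM in HF and 1.26 and 0.726 in HB, or 31 to 136 reads. Its mean over the 4 libraries, 0.999 RPKM, lay just under the minimum of 1 RPKM, so that it was not tested. Mbtps1 mRNA was 8.15 and 19.0 times that of Mbtps2 in HF and 8.52 and 14.2 times in HB.

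Mylip, the LXR-driven ligase, was lower in HB. Its mRNA was 3.77 and 6.75 RPKM in HF and 2.42 and 1.82 RPKM in HB, from 131 and 238 reads in HF and 163 and 98 in HB. Both HB libraries lay below both HF libraries, and the ratio of the means was 0.40. The difference was -0.97 (SE 0.29, 95% interval -1.62 to -0.31, unadjusted p = 0.00829, limma adjusted p = 0.0366), just short of the fold threshold, and the added constant of 1 understates it at this level. Without HF replicate 2 it was -0.62 (limma adjusted p = 0.271), and over 12 alternatives the adjusted p ranged from 0.00735 to 0.271, with 8 of them under 0.05.

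The median of all tested genes was -0.19 in mRNA as deposited and 0.08 with a common median of the libraries. Relative to the former median the difference was 1.63 for Insig1 and -0.78 for Mylip. The other 5 tested genes lay 0.10 to 0.83 above it.

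The order of the mRNA levels per kilobase differed between the groups by exchanges of neighbours. In HF the mean fell from Srebf1 (75.2 RPKM) through Insig1 (44.0), Insig2 (30.7), Scap (21.5), Mbtps1 (11.2), Mylip (5.26) and Srebf2 (4.77) to Mbtps2 (1.01). Within HF the libraries of Insig2 and Scap overlapped, as did those of Mylip and Srebf2. In HB the order was Insig1 (140.3 RPKM), Srebf1 (91.8), Insig2 (45.4), Scap (20.2), Mbtps1 (10.5), Srebf2 (5.78), Mylip (2.12) and Mbtps2 (0.992). Within HB Insig1 and Srebf1 overlapped, and no other neighbours did. Insig1 thus stood above Srebf1 by its mean in HB and below it in HF, a change of order that no test was made of.

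**Figure D2:**
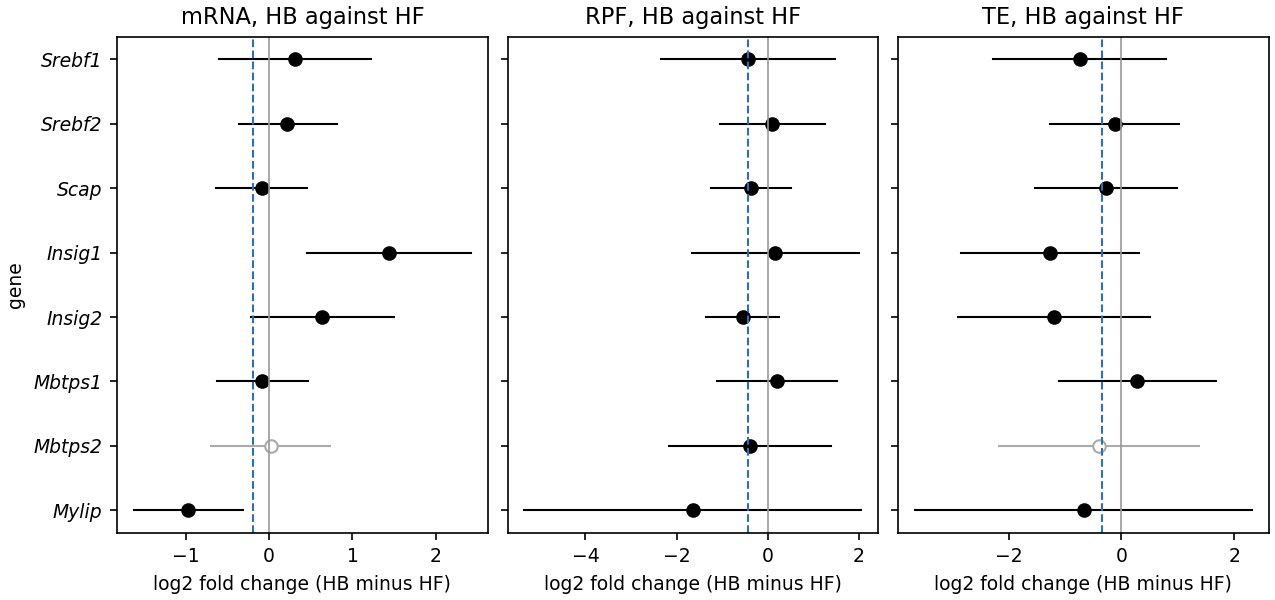
Points are the log2 fold changes of HB against HF on the log2(RPKM + 1) scale in mRNA, RPF and TE, with 95% intervals of the limma fit from 2 libraries per group. Dashed lines mark the median of all tested genes (-0.19, -0.43 and -0.35), and grey open points were below the filter. Only the mRNA intervals of Insig1 and Mylip leave out 0.

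In RPF, none of the 8 genes was called (log2 fold change beyond 1 and unadjusted p under 0.05), against 9.44% of 11190 genes tested and 7.86% lower in HB. With a common median the calls over all genes went from 177 higher and 879 lower to 349 higher and 421 lower. None reached an unadjusted p of 0.05 either, against 10.0% of all. Scap and Insig2 had HB libraries entirely below the HF libraries, 2 of 8 against 42.3% of all genes. All 8 genes had RPF reads in every library except Mylip in HB replicate 2.

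Insig1 RPF was 62.3 and 176 RPKM in HF and 194 and 71.9 RPKM in HB, on 64 and 493 reads in HF and 132 and 27 in HB. The groups overlapped, and the libraries differed by 2.83 times within HF and by 2.70 times within HB. The difference was 0.17 (SE 0.71, 95% interval -1.66 to 2.00, limma adjusted p = 0.938), whose interval holds the 1.44 seen in mRNA. Insig2 RPF was 68.6 and 93.6 RPKM in HF and 50.3 and 59.0 in HB, both HB libraries below both HF libraries. Its difference was -0.55 (SE 0.31, 95% interval -1.36 to 0.26, limma adjusted p = 0.607).

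The Insig2 values fit 17 and 11 reads in HB at a gene length of 1315 bases in Ribo-seq. Read numbers 2 times as large, at 2 times that length, would fit as well. Because the length in RNA-seq was 2697 bases, the ratio of RPF to mRNA of Insig2 is on a scale of its own, though its comparison between the groups is not touched.

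Srebf1 RPF was 52.0 and 105 RPKM in HF and 106 and 27.8 in HB. HB replicate 2, the shallowest library, gave the lowest value, on 17 reads, with a 95% Poisson interval of 16.2 to 44.5 RPKM. The difference was -0.43 (SE 0.74, limma adjusted p = 0.840), equal to the median of all genes. Srebf2 RPF was 12.4 and 9.53 RPKM in HF and 12.8 and 10.8 in HB, a difference of 0.10 (SE 0.44, limma adjusted p = 0.941).

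Scap RPF was 29.9 and 26.0 RPKM in HF and 21.2 and 21.7 in HB, a difference of -0.36 (SE 0.34, limma adjusted p = 0.700). The HB values rested on 23 and 13 reads, and their 95% Poisson intervals, 13.4 to 31.8 and 11.5 to 37.1 RPKM, covered both HF values. Mbtps1 RPF was 15.3 and 14.8 RPKM in HF and 25.8 and 11.7 in HB, with HF between the HB libraries. Mbtps2 RPF was 2.15 and 4.54 RPKM in HF and 1.62 and 2.94 in HB, where 2 reads stood behind each HB value.

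Mylip RPF was 12.1 and 12.4 RPKM in HF, 17.0 in HB replicate 1 and 0 in HB replicate 2. The zero allows up to 7.09 RPKM (3 reads), while HB replicate 1 rested on 13 reads. The difference of -1.64 (SE 1.43, 95% interval -5.34 to 2.06, limma adjusted p = 0.679) therefore hung on a single library, being 0.44 without HB replicate 2 and -3.73 without HB replicate 1. Summed over libraries, 53 reads in HF and 13 in HB gave a ratio of 0.888 per total read, with an exact 95% interval of 0.444 to 1.65 for counting error only. Of the 8 genes only Insig2 had such an interval that left out 1, at 0.614 (0.396 to 0.921), which does not cover the spread between libraries.

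The RPF totals also held small RNA. The largest entry took 14.6% and 10.9% of the summed RPKM in HF (Snord14d and Rnu6) and 24.1% and 29.5% in HB (Mir122 in both). With RPKM rescaled to a common sum, the median of all RPF differences moved from -0.43 to -1.16, and Insig2 was then called lower in RPF (-1.41, limma adjusted p = 0.196). The part of the small RNA in the RPF results was not tested.

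For TE, the ratio of RPF to mRNA of the libraries with the same number, none of the 7 genes tested was called (log2 fold change beyond 2 and unadjusted p under 0.05). The background was 6.09% of 9455 genes, 4.60% lower in HB, and no gene of the 7 reached an unadjusted p of 0.05 against 12.2% of all. Srebf1, Scap and Insig1 had HB ratios entirely below HF, 3 of 7 against 45.7% of all genes. The sources do not say which RNA-seq library shares an animal with which Ribo-seq library. With the numbers crossed, the ratios of Srebf1 and Insig1 overlapped between the groups, and those of Scap and Insig2 did not. Those of Mbtps2, which was not among the 7 genes tested, did not overlap either. The share of all genes without overlap was not computed for crossed numbers. Insig1 had crossed ratios of 1.42 and 4.00 in HF and 2.81 and 0.339 in HB, and its TE difference of -1.27 a limma adjusted p = 0.643.

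Insig1 had 1.41 and 4.02 RPF per mRNA (RPKM ratio) in HF and 0.916 and 1.04 in HB. Both HB ratios were below both HF ratios, and HF replicate 2 stood apart from the other 3 libraries. The TE difference was -1.27 (SE 0.65, 95% interval -2.85 to 0.31, unadjusted p = 0.0965, limma adjusted p = 0.480). Insig2 followed a like pattern, with 1.59 and 5.11 in HF and 0.925 and 1.62 in HB, but its groups overlapped by a narrow margin, and the TE difference was -1.19 (SE 0.70, limma adjusted p = 0.521).

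Without HF replicate 2 the TE differences were -0.52 for Insig1 and -0.37 for Insig2, and without HF replicate 1 both were -2.01, with neither called. With RPKM rescaled to a common sum, both were called lower, at -2.09 (limma adjusted p = 0.106) and -2.01 (limma adjusted p = 0.113), beside 1332 of 9455 genes called lower and a median of all genes of -1.03 in TE.

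Srebf1 had TE ratios of 1.09 and 1.02 in HF and 0.881 and 0.443 in HB, a difference of -0.74 (SE 0.63, limma adjusted p = 0.650) that was -1.22 without HB replicate 1 and -0.26 without HB replicate 2. Scap had 1.40 and 1.20 in HF and 1.13 and 1.00 in HB, a difference of -0.27 (limma adjusted p = 0.849). Srebf2 had 2.41 and 2.16 in HF and 1.90 and 2.24 in HB, above Srebf1 in each library with the numbers matched. With the numbers crossed, the order turned for the RPF of HF replicate 2 (1.85 for Srebf2 and 2.20 for Srebf1). The Srebf2 ratios in HB rested on 15 and 7 RPF reads. Mbtps1 had 1.28 and 1.42 in HF and 2.41 and 1.13 in HB. Mylip had the widest spread, from 0 to 6.99 within HB, and its TE difference of -0.67 became 1.27 without HB replicate 2 and -2.62 without HB replicate 1. The latter value rests, in HB, on the library without RPF reads.

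**Figure D3:**
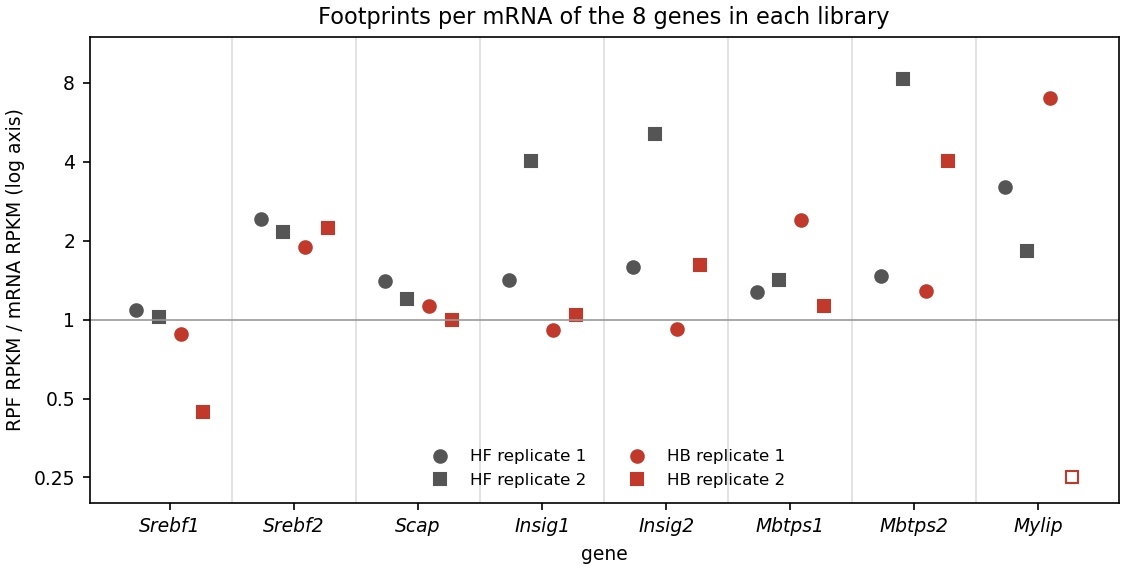
Each point is the RPF RPKM divided by the mRNA RPKM of the libraries with the same group and number (log axis), with HF in grey and HB in red. The open square, drawn at the lower edge, is a ratio of 0. Insig1 lies at 1.41 and 4.02 in HF and at 0.916 and 1.04 in HB, and the Mylip ratios in HB run from 0 to 6.99.

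The other genes of the pathway were read from 9 lists chosen without the 8 genes. Of 103 list genes tested in mRNA, 17 were called higher in HB against 2.30% of all genes, and 3 lower against 6.56%. In RPF 0 of 105 were called higher and 6 lower, against 177 of 11190 genes higher and 7.86% lower. In TE 0 of 100 were called higher and 14 lower, against 141 of 9455 genes higher and 4.60% lower. The higher calls in mRNA were those of SREBP targets, apart from Smpdl3a. Without the filter on low values 4 list genes were called higher in mRNA, beside 77 of 16758 genes, and with a common median 25, beside 540 of 10687. The counts also moved with single libraries, to 39 higher in mRNA without HB replicate 2 and 26 without HF replicate 1 or without HF replicate 2, to 26 lower in RPF without HB replicate 1 and 15 without HB replicate 2, and to 6 lower in TE without HF replicate 2. The counts over all genes moved too. In mRNA 502 of 10687 genes were higher without HB replicate 2, 166 without HF replicate 1 and 241 without HF replicate 2. In RPF 2609 of 11190 genes were lower without HB replicate 1 and 1588 without HB replicate 2, and in TE 179 of 9455 without HF replicate 2, against 435 with all libraries.

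Of the SREBP-2 sterol targets, most of which encode enzymes of cholesterol synthesis, 12 of 22 were called higher in mRNA and none lower. All 22 differences were above 0, with a median of 1.57 against -0.19 for all genes. Fdps, the farnesyl diphosphate synthase, had 30.0 and 23.4 RPKM in HF and 300.1 and 125 in HB, a difference of 2.83 (limma adjusted p = 0.00523). Pmvk (phosphomevalonate kinase, 2.14), Cyp51 (lanosterol demethylase, 2.22) and Tmem97 (a sterol-responsive membrane protein, 1.70) were also called. The Insig1 difference of 1.44 lay close to the median of this list. HB replicate 1 exceeded HB replicate 2 in 21 of the 22 genes, as it did in Insig1, and both HB libraries exceeded both HF libraries in 21. Over all genes the groups did not overlap, in either direction, in 68.1%.

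Of the SREBP-1c lipogenic targets, 4 of 17 were called higher in mRNA, with 16 differences above 0 and a median of 1.63. The desaturase Fads1 had 47.7 and 46.9 RPKM in HF and 284 and 196 in HB (2.29, limma adjusted p = 0.00510). Fads2 (3.13), the elongase Elovl5 (1.99) and Me1 (malic enzyme, 2.50) were called as well. HB replicate 1 exceeded HB replicate 2 in all 17 genes, and both HB libraries exceeded both HF libraries in 10 of them. The 68.1% of all genes without overlap counts both directions, so it is no direct measure for these 10. Srebf1 mRNA was also higher in HB replicate 1 than in HB replicate 2, by 0.93 on the log2 scale, beside a median of 1.57 in this list and 1.61 for Insig1.

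In RPF the same lists had no gene called higher, beside 177 of 11190 genes. With a common median 1 SREBP-2 target was called higher, beside 349 genes. As deposited, the SREBP-2 targets had a median of -0.33 in RPF. Of the 21 tested 2, Mvk (mevalonate kinase) and Cyp51, were called lower, near the 7.86% of all genes. Mvk had 4 and 9 reads in HF and 0 in both HB libraries, so it passed the filter through HF alone and its RPF and TE values are set against a group without reads, and Cyp51 had 13 and 41 reads in HF and 2 and 1 in HB. The SREBP-1c targets had a median of -0.44 and no call, beside -0.43 for all genes. In TE all 21 SREBP-2 targets tested and all 16 SREBP-1c targets were below 0, with medians of -1.82 and -1.68 against -0.35 for all genes, and 6 of each list were called lower. The former 6 included Mvk, Cyp51 and Idi1, and the latter Fads2, Fads1, Me1 and Acss2. No TE or RPF call of these lists had an adjusted p under 0.05.

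**Figure D4:**
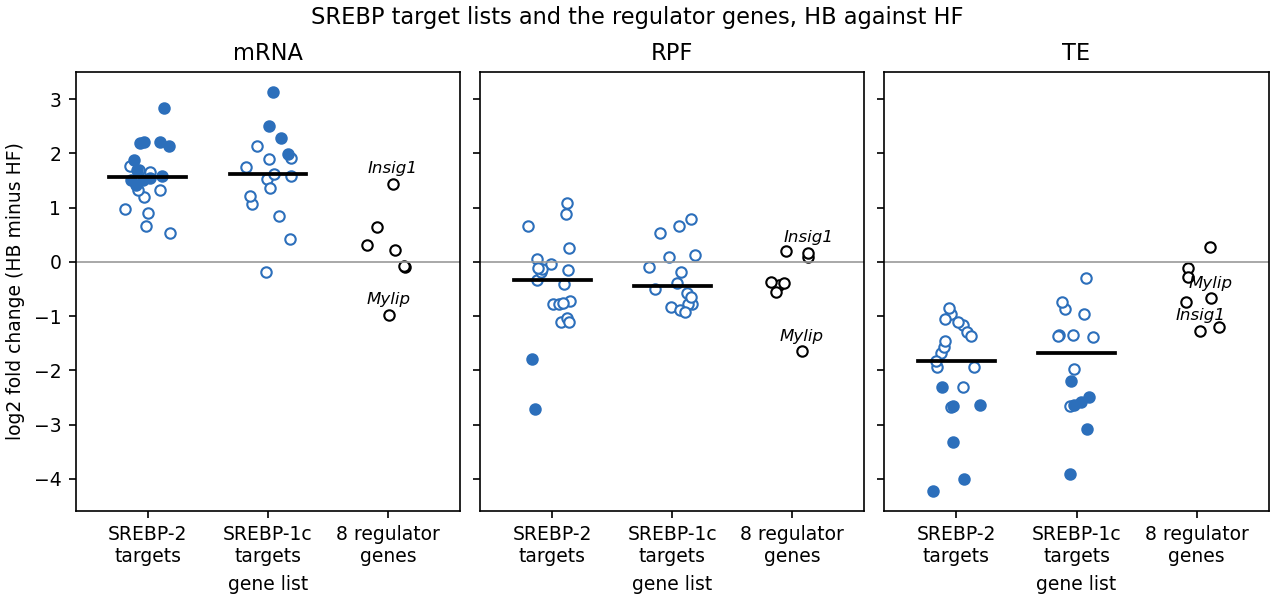
Each point is the log2 fold change of HB against HF of a gene in mRNA, RPF or TE, filled where it was called, and thick lines are list medians (1.57, -0.33 and -1.82 for the SREBP-2 targets, and 1.63, -0.44 and -1.68 for the SREBP-1c targets). The 7 or 8 regulator genes tested are shown beside them as black open points. In mRNA Insig1 lies within the range of the target lists, and the other regulator genes lie lower.

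The machinery around SREBP was read against 8.86% of all genes called in mRNA and 9.44% in RPF. Of 10 genes of the COPII coat and SCAP trafficking none was called in mRNA. In RPF 2 of 11 were called lower, against 7.86% of all genes lower. They were Sec24c, a cargo adaptor of the coat, and Paqr3, a Golgi anchor of SCAP. In HB Sec24c had 14 and 7 RPF reads and Paqr3 2 and 0, and both had a limma adjusted p = 0.493. With a common median 1 gene of this list was called lower in RPF, beside 421 of 11190 genes. With a common sum 8 were, beside 2659. Of 12 genes that degrade INSIG and the reductase in the ER, only Syvn1, the ubiquitin ligase HRD1, was called, lower in mRNA at 230 and 176 RPKM in HF and 36.9 and 57.7 in HB (-2.10, limma adjusted p = 0.00525). No other substrate of the site-1 and site-2 proteases was called among 6 tested in mRNA and 7 in RPF.

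Of 13 nuclear partners and turnover factors of SREBP, 12 were below 0 in mRNA with a median of -0.57, against -0.19 for all genes. With a common median of the libraries, 10 were below 0, the median was -0.30 and none was called. Sirt1, a deacetylase, was the single call in the values as deposited (1 of 13, against 6.56% of all genes lower), at 7.98 and 6.89 RPKM in HF and 2.69 and 2.35 in HB (-1.26, limma adjusted p = 0.00850).

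Upstream of Mylip, the LXRs and their RXR partners were below 0 in mRNA in 5 of 5 genes, with none called and a median of -0.31 against -0.19 for all genes. With a common median of the libraries the list median was -0.03, and Rxra stood at 0.15 and Nr1h2 at -0.59 (limma adjusted p = 0.139). Nr1h2 (LXR beta) had 38.0 and 32.7 RPKM in HF and 16.3 and 22.0 in HB (-0.86, limma adjusted p = 0.0369). Nr1h3 (LXR alpha), the more abundant in liver, had 86.5 and 70.9 RPKM in HF and 59.7 and 66.7 in HB (-0.31, limma adjusted p = 0.391). Rxra was -0.12, Rxrb -0.73 (limma adjusted p = 0.0530) and Rxrg -0.28. In RPF Rxrg had 2 and 4 reads in HF and 0 in both HB libraries. It passed the filter on low values through HF alone, so its call as lower is no result about the list, beside 7.86% of all genes called lower.

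Of 6 other LXR targets, Smpdl3a, a phosphodiesterase, was called higher in mRNA, at 3.35 and 3.78 RPKM in HF and 19.6 and 10.3 in HB, and lower in TE. In mRNA 4 of the 6 were above 0 and 2 below, with a median of 0.09. Abcg5, a sterol exporter named after its value was seen, stood at -1.02 (limma adjusted p = 0.0330), beside -0.97 for Mylip. With a common median they stood at -0.75 and -0.70, with limma adjusted p of 0.0992 and 0.0997.

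Of 12 partners and other substrates of MYLIP and adaptors of the LDL receptor tested in mRNA, 1 was called lower, near the 6.56% of all genes. It was Usp2, a deubiquitinase that opposes MYLIP, at 45.5 and 40.0 RPKM in HF and 14.1 and 18.3 in HB (-1.35, limma adjusted p = 0.00777). Ube2d2b, of the family of ubiquitin-conjugating enzymes that serve MYLIP, had 2 and 3 RPF reads in HF and 0 in both HB libraries. It too passed the filter through HF alone, and its call as lower, 1 of 14 genes tested in RPF, stands beside 7.86% of all genes. The mRNA median of this list, -0.19, equalled that of all genes.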

How the data were processed

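RNA-seq (TruSeq RNA) and Ribo-seq (RNase I, fragments of about the footprint size) were made from liver, with 2 libraries per group and assay. Reads were aligned by the authors with FANSe2 (mm10), and the deposited unit is RPKM, scaled by gene length and library total, and replicates were not pooled in the files. edgeR, which the authors used for differential genes, was not run here. Whether RPF reads were counted over coding sequence only is not given in the sources used here, and the gene length behind each of the 8 genes exceeded its coding length. The deposited values were used as they stand, and 0 columns of samples fell outside the mapping.

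Library totals and whole reads were recovered from steps of 1 read, for 99.95% of genes above 0 in each assay (tolerance 0.003 reads for RNA-seq and 0.001 for Ribo-seq, plus a small share of the read number for rounding). The recovered reads of the RNA-seq libraries summed to 96.2% to 97.9% of these totals, and those of the Ribo-seq libraries to 100.7% to 102.3%. Intervals from them are 95% Poisson intervals, the floor is 3 reads, and both cover counting error only.

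A gene entered a test if its RPKM averaged 1 or more over the 4 libraries of the assay. Testing was by limma 3.58.1 (R 4.3.3, trended eBayes, two-sided) on log2(RPKM + 1), and TE was tested on the difference of these values between libraries of the same number. Calls used the thresholds of the study, with Benjamini-Hochberg adjustment over all tested genes beside them. Symbols that occur more than once (4 entries in RNA-seq) were left out. The members, lists and thresholds were chosen with earlier results of these data known. Named genes are all 8 members, the LXR and RXR receptors and, per list, measure and direction, up to 4 called genes with the smallest p. A few genes so selected were left out of the text. A rule for the nearest profiles applied only to members called in mRNA and so named no gene. The tests were tried on simulated data. Alternatives were a pseudocount of 0.1, other filters and scalings, no variance trend, blocks by replicate number, voom on recovered reads, an interaction model, crossed TE numbers and leaving out each library.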

Additional observations from a re-analysis of the deposited data

How the results depend on the processing

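Of 297 values of the 8 genes under alternatives, 267 kept their direction and their side of the threshold, 21 changed sign without being called and 9 became called. Left-out libraries gave, per measure, these ranges in mRNA: Srebf1 -0.24 to 0.85, Scap -0.19 to 0.01, Insig1 0.64 to 2.24, Insig2 0.05 to 1.24 and Mbtps1 -0.17 to 0.02. In RPF they gave Srebf1 -1.38 to 0.52, Srebf2 -0.07 to 0.28, Insig1 -0.57 to 0.91, Mbtps1 -0.34 to 0.74, Mbtps2 -0.79 to 0.03 and Mylip -3.73 to 0.44. In TE they gave Srebf1 -1.22 to -0.26, Mbtps1 -0.24 to 0.79 and Mylip -2.62 to 1.27. The 8 genes then had 0 to 1 calls in each of mRNA, RPF and TE. The list genes called had 16 to 39 higher and 1 to 4 lower in mRNA, 0 to 6 higher and 3 to 26 lower in RPF, and 0 to 1 higher and 6 to 21 lower in TE. The calls over all genes also moved with the library left out, in mRNA, RPF and TE. These ranges of calls are therefore no result specific to the 8 genes or to the lists. Where a library left out leaves 1 in a group, that library is assumed to vary like the other group.

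With a common median, Scap was 0.18 and Mbtps1 0.20 in mRNA. Then 25 list genes were called higher and 1 lower in mRNA, beside 540 and 291 of 10687 genes. In RPF 2 were called in each direction, beside 349 higher and 421 lower of 11190 genes. With a common sum, the RPF differences were -0.70 for Srebf2, -0.69 for Insig1 and -0.61 for Mbtps1, and the TE difference of Mbtps1 was -0.50. The calls were then 1 of the 8 genes (Insig2) in RPF and 2 (Insig1 and Insig2) in TE, with 34 list genes lower in each, beside 2659 of 11190 genes in RPF and 1332 of 9455 in TE. Without a filter, 4 list genes were called higher and 1 lower in mRNA, and with a mean RPKM of at least 5, 3 were called lower in RPF. With voom on recovered reads, 5 list genes were called lower in mRNA, beside 729 of 10683 genes. In RPF 1 was called higher, beside 436 of 11186 genes. With an adjusted p under 0.05, 1 of the 8 genes (Insig1) and 26 list genes higher and 8 lower were called in mRNA. Of all genes tested in mRNA 17.7% were then called, in either direction. In RPF and TE 0 list genes were called at that threshold. The causes were not tested.

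Same-numbered libraries of the groups deviated with a correlation of -0.104 in mRNA and -0.0138 in RPF, so the numbers were not taken to pair them. Deviations of mRNA and RPF libraries of the same number had a correlation of -0.00239 in HF and -0.0774 in HB. These values gave no ground for the match by number used in TE. With the replicate block, Insig1 was called in mRNA (1.44, limma adjusted p = 4.0e-04), as were 32 list genes higher and 5 lower, beside 498 genes higher and 1229 lower of 10687. With the crossed replicate block, chosen after seeing the data, 1 of the 8 genes was called in mRNA, with 28 list genes higher and 5 lower, beside 474 and 1303 of all genes. In HB the RPF values of Mbtps2, Mylip, Srebf2 and Insig2 rested on 4, 13, 22 and 28 reads in all, which limits what depth can show for them.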
